A study of Mus musculus with 30 samples.

Results

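The MHC class II presentation genes described here are 10 of the 32285 genes counted in 4 single-cell RNA-seq libraries of mouse spleen. They were taken by symbol, from a list chosen with earlier results of these data known. H2-Aa, H2-Ab1 and H2-Eb1 encode antigen-binding chains, Cd74 encodes the invariant chain, H2-DMa, H2-DMb1 and H2-DMb2 encode the peptide editor H2-DM, H2-Oa and H2-Ob encode its inhibitor H2-O, and Ciita encodes the transactivator of the whole set. Of the 10, 8 lie on chromosome 17, Cd74 on chromosome 18 and Ciita on chromosome 16.

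The study asks how cohesin and PU.1 act on conventional dendritic cells (cDC). Its single-cell arm took splenocytes depleted of red blood cells from mice of 6 to 8 weeks, 2 libraries labelled Smc3-cKO (a conditional knockout of the cohesin subunit gene Smc3) and 2 labelled Smc3-WT. The labels give neither the Cre driver, the deleted part of Smc3, the strain and sex, nor whether each library came from its own animal. P-values therefore measure the spread between libraries, which may be technical.

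Class II molecules carry peptides from endocytosed protein to the cell surface, where CD4 T cells read them. Newly made alpha and beta chains assemble on the invariant chain, which blocks the groove until proteases trim it. H2-DM then removes the last fragment and selects stable peptides, while H2-O restrains H2-DM, a restraint best known from B cells. Conventional dendritic cells and B cells express the set constitutively through different Ciita promoters, and mouse T cells are known to make little or none of it. RFX and CREB family factors and NF-Y bind the X and Y boxes of the class II promoters and recruit the transactivator.

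Promoter sequences of 7 of the 10 genes were matched in the RefSeq table of build GRCm38.p6, and stretches of 6 of them are printed to show the control elements that were searched for: 4 run from the X to the Y box, that of H2-Aa from a cAMP response element to the Y box, and that of H2-Oa holds a Y box alone. Each is written 5′ to 3′ on the gene's strand and ends before the annotated start. Capitals mark the Y box TGATTGG, the X box CNNATGATG or, in H2-Aa, the cAMP response element TGACGTCA.
H2-Aa, chr17:34287861-34287905, minus strand: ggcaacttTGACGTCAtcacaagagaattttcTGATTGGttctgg
H2-Eb1, chr17:34305772-34305818, plus strand: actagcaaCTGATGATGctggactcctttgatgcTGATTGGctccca
H2-DMb1, chr17:34153093-34153140, plus strand: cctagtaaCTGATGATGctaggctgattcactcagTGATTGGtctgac
H2-DMb2, chr17:34145122-34145169, plus strand: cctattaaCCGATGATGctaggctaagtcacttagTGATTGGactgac
H2-Ob, chr17:34238814-34238858, plus strand: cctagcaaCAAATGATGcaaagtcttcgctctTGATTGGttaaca
H2-Oa, chr17:34092289-34092346, plus strand: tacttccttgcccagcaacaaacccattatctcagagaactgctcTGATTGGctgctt

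The Y box letters were present in the promoters of 6 of the 7 genes and the X box letters in those of 4. Over all 32851 promoters of the table, each 300 bases long and searched on both strands, 7.82% held the Y box, 2.75% the X box and 1.79% the cAMP response element, and 57 promoters (0.174%) held both the X and the Y box. The starts of the X and Y boxes were 27 bases apart in H2-DMb1 and H2-DMb2, 26 in H2-Eb1 and 24 in H2-Ob. The X box letters were chosen after these sequences were seen, so their count is a description. The promoters of H2-DMb1 and H2-DMb2, which encode alternative beta chains of H2-DM, were identical at 62.3% of aligned positions, against 53.9% for H2-DMb1 with H2-Eb1 and 52.1% for H2-DMb1 with H2-Ob. H2-DMa, listed with 2 promoters, held none of these letters in either, which says nothing on the factors.

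Cells were assigned to classes by counting marker genes with at least 1 unique molecular identifier (UMI), and no class II gene served as a marker. The 4 libraries held 53644 barcodes and between 40367056 and 51299056 UMIs each, and 44793 cells were kept. They shared 36 to 61 barcodes per pair, at most 0.432% of the smaller library. Doublet calls took 0.859% of Smc3-WT replicate 1, where 12.9% was expected from its barcodes, and 3.61% to 6.37% of the others. The dendritic classes were small, with 26 to 44 cDC1, 33 to 110 cDC2, 25 to 86 plasmacytoid dendritic cells (pDC) and 6 to 29 mature cDC per library. All 4 shared cDC markers had UMIs in cDC1 and cDC2 of every library, and all 8 pDC markers in pDC. Of the cells placed in a class, 46.4% of cDC2, 51.8% of marginal zone B, 82.6% of B1 and 92.4% of transitional B cells held just the number of own markers required. Smc3 itself had 125 and 121 UMIs per 1000000 (CPM) in the cDC of the Smc3-cKO libraries, against 69.7 and 89.6 CPM in those of the Smc3-WT libraries. The assay reads the 3′ end of transcripts, which can lie outside a deleted part, so this value checks no label.

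The level of each class II gene is given in CPM of the UMIs summed over a class in a library, and comparisons are made for a gene between classes, since counts of transcript ends are not scaled to compare genes. Summed over the 10 genes, cDC1 were highest with 18077 ± 923 CPM (SD, n = 4 libraries), and the lowest cDC1 library (16802 CPM) stood barely above the highest cDC2 library (16800 CPM). The order went on with 14869 ± 1511 CPM in cDC2, 11625 ± 2967 CPM in mature cDC and 8240 ± 791 CPM in follicular B cells, where each neighbour in this run overlapped the next. Marginal zone B (6247 ± 564 CPM), B1 (6175 ± 208 CPM) and transitional B cells (5775 ± 816 CPM) overlapped one another, lay below follicular B cells without overlap and above pDC without overlap. pDC had 3704 ± 1482 CPM, plasma cells 2662 ± 887 CPM, nonclassical monocytes 2356 ± 548 CPM, red pulp macrophages 1974 ± 586 CPM and classical monocytes 989 ± 290 CPM, with neighbours overlapping. The order of the monocyte classes turned with another way of assigning cells, as given with their comparison.

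**Figure D1:**
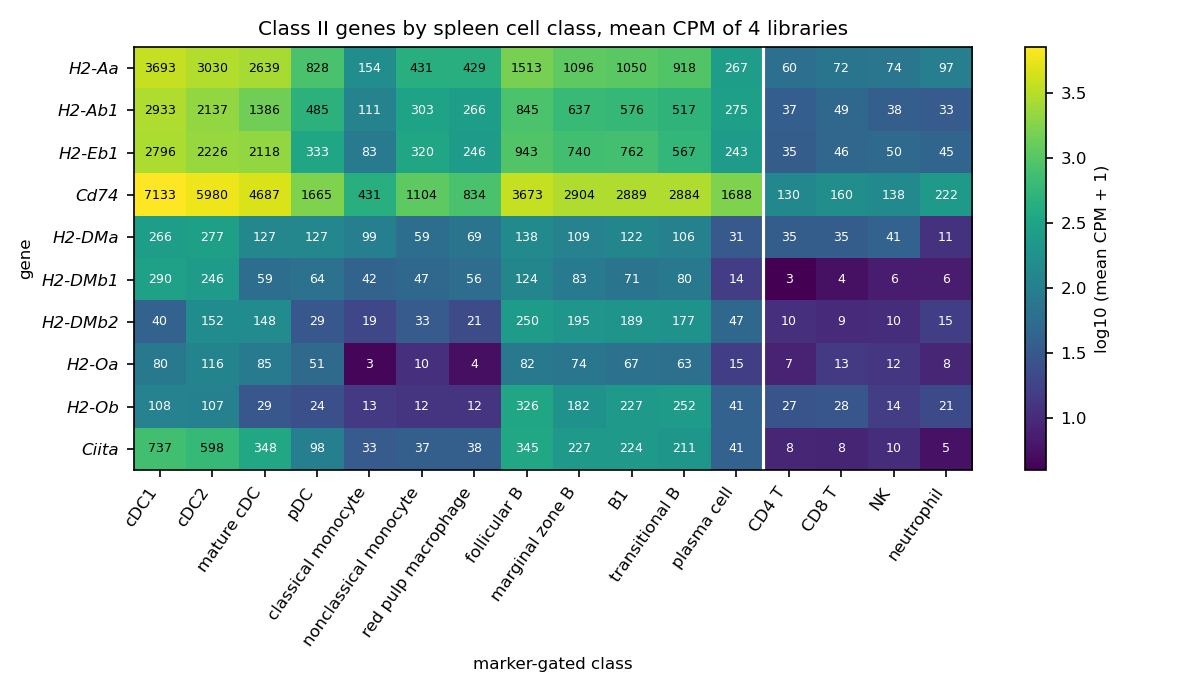
Mean level of each of the 10 class II genes (rows) in 16 marker-gated spleen classes (columns), in CPM over 4 libraries, colour on a log10 scale and the white line setting off classes outside antigen presentation. H2-Aa and Cd74 run from 3693 and 7133 CPM in cDC1 to 59.8 and 130 CPM in CD4 T cells, and H2-Ob and H2-DMb2 are highest in follicular B cells.

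CD4 T cells gave the background. Their 10-gene sum was 212 and 136 CPM in the Smc3-cKO libraries, against 861 and 194 CPM in the Smc3-WT libraries. This equals 2.69% and 1.59% of the follicular B cell sum in the Smc3-cKO libraries, against 11.7% and 2.12% in the Smc3-WT libraries. Smc3-WT replicate 1 stood apart, and the 11 B cell markers moved with it: their summed level in CD4 T cells was 264 and 230 CPM in the Smc3-cKO libraries, against 740 and 254 CPM in the Smc3-WT libraries, with every marker above 0. The part of B cell RNA in the class II level of T cells was not tested. With each cell thinned to 1000 UMIs, 5.64% and 3.16% of CD4 T cells of the Smc3-cKO libraries held a Cd74 UMI, against 32.4% and 5.95% in the Smc3-WT libraries. The same share averaged 98.2% in cDC1 and 96.4% in follicular B cells. Before thinning, Cd74 was found in 22.6% and 7.19% of CD4 T cells of the Smc3-cKO libraries, against 64.4% and 15.3% in the Smc3-WT libraries. Shares of a few percent are read here as background.

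Against CD4 T cells, all 10 genes were higher in cDC1, where 20.6% of all genes tested were higher, by edgeR's quasi-likelihood test with library as a block and Benjamini-Hochberg adjustment. All 10 were also higher in cDC2 (20.2% of all genes), follicular B (24.7%), marginal zone B (21.9%), B1 (17.1%) and transitional B cells (19.4%). In pDC 9 of 10 were higher (20.1% of all genes) and in mature cDC 9 of 10 (13.9%), H2-Ob being the exception in both. Plasma cells had 8 of 10 higher (18.2%), nonclassical monocytes 8 (24%), classical monocytes 7 (26.9%) and red pulp macrophages 7 (21%). With clusters in place of gates nonclassical monocytes lost H2-DMa (adjusted p = 0.376), H2-DMb2 (0.353) and Ciita (0.804), and without Smc3-cKO replicate 1 red pulp macrophages lost H2-DMa (0.403) and Ciita (0.298), by edgeR. The 7 higher in classical monocytes and red pulp macrophages were the 3 antigen-binding chains, Cd74, H2-DMa, H2-DMb1 and Ciita. H2-Ob was lower than in T cells in classical monocytes, by a log2 change of -1.02 (SE 0.40, adjusted p = 0.0327, edgeR), where 27% of all genes were lower, and in nonclassical monocytes, by -1.10 (25.6% of all genes). Each H2-Ob call was lost in 3 of the 4 fits that left out a library, Smc3-cKO replicate 1 and Smc3-WT replicate 1 among them in both classes (adjusted p = 0.0511 to 0.166 where lost).

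For each antigen-binding chain the mean level was highest in cDC1, then cDC2, mature cDC and follicular B cells, as for the sum, and further down the orders differed from it. H2-Aa, the alpha chain of I-A, had 3584 and 3880 CPM in cDC1 of the Smc3-cKO libraries, against 3355 and 3953 CPM in those of the Smc3-WT libraries. In follicular B cells H2-Aa had 1317 and 1760 CPM in the Smc3-cKO libraries, against 1124 and 1850 CPM in the Smc3-WT libraries. The genotypes overlapped in both classes, and in follicular B cells the replicate 1 libraries of both genotypes were the low ones. H2-Ab1, the beta chain of I-A, averaged 2933 ± 382 CPM in cDC1, 2137 ± 303 CPM in cDC2, 845 ± 27.2 CPM in follicular B and 266 ± 132 CPM in red pulp macrophages (SD, n = 4). H2-Eb1, the beta chain of I-E, averaged 2796 ± 346 CPM in cDC1, 2226 ± 689 CPM in cDC2 and 943 ± 228 CPM in follicular B cells. In follicular B cells against cDC2, H2-Aa, H2-Ab1 and H2-Eb1 were lower by log2 changes of -0.95, -1.27 and -1.16.

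Cd74, whose product chaperones new class II chains, had 7232 and 6602 CPM in cDC1 of the Smc3-cKO libraries, against 7582 and 7115 CPM in the Smc3-WT libraries. It had 3597 and 3680 CPM in follicular B cells of the Smc3-cKO libraries, against 3501 and 3914 CPM in the Smc3-WT libraries. Cd74 made up 39.5% ± 1.40 of the UMIs of the 10 genes in cDC1, 44.7% ± 2.36 in follicular B and 64.3% ± 4.05 in plasma cells (SD, n = 4), and the plasma cell shares did not overlap those of cDC1 or follicular B cells. All 10 genes were lower in plasma cells than in follicular B cells (16.8% of all genes), Cd74 with a log2 value of -0.87 (SE 0.22, adjusted p = 0.00206) and Ciita with -3.07 (SE 0.34, adjusted p = 7.21e-09, edgeR). Without Smc3-cKO replicate 1 the Cd74 difference no longer passed (adjusted p = 0.0702).

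**Figure D2:**
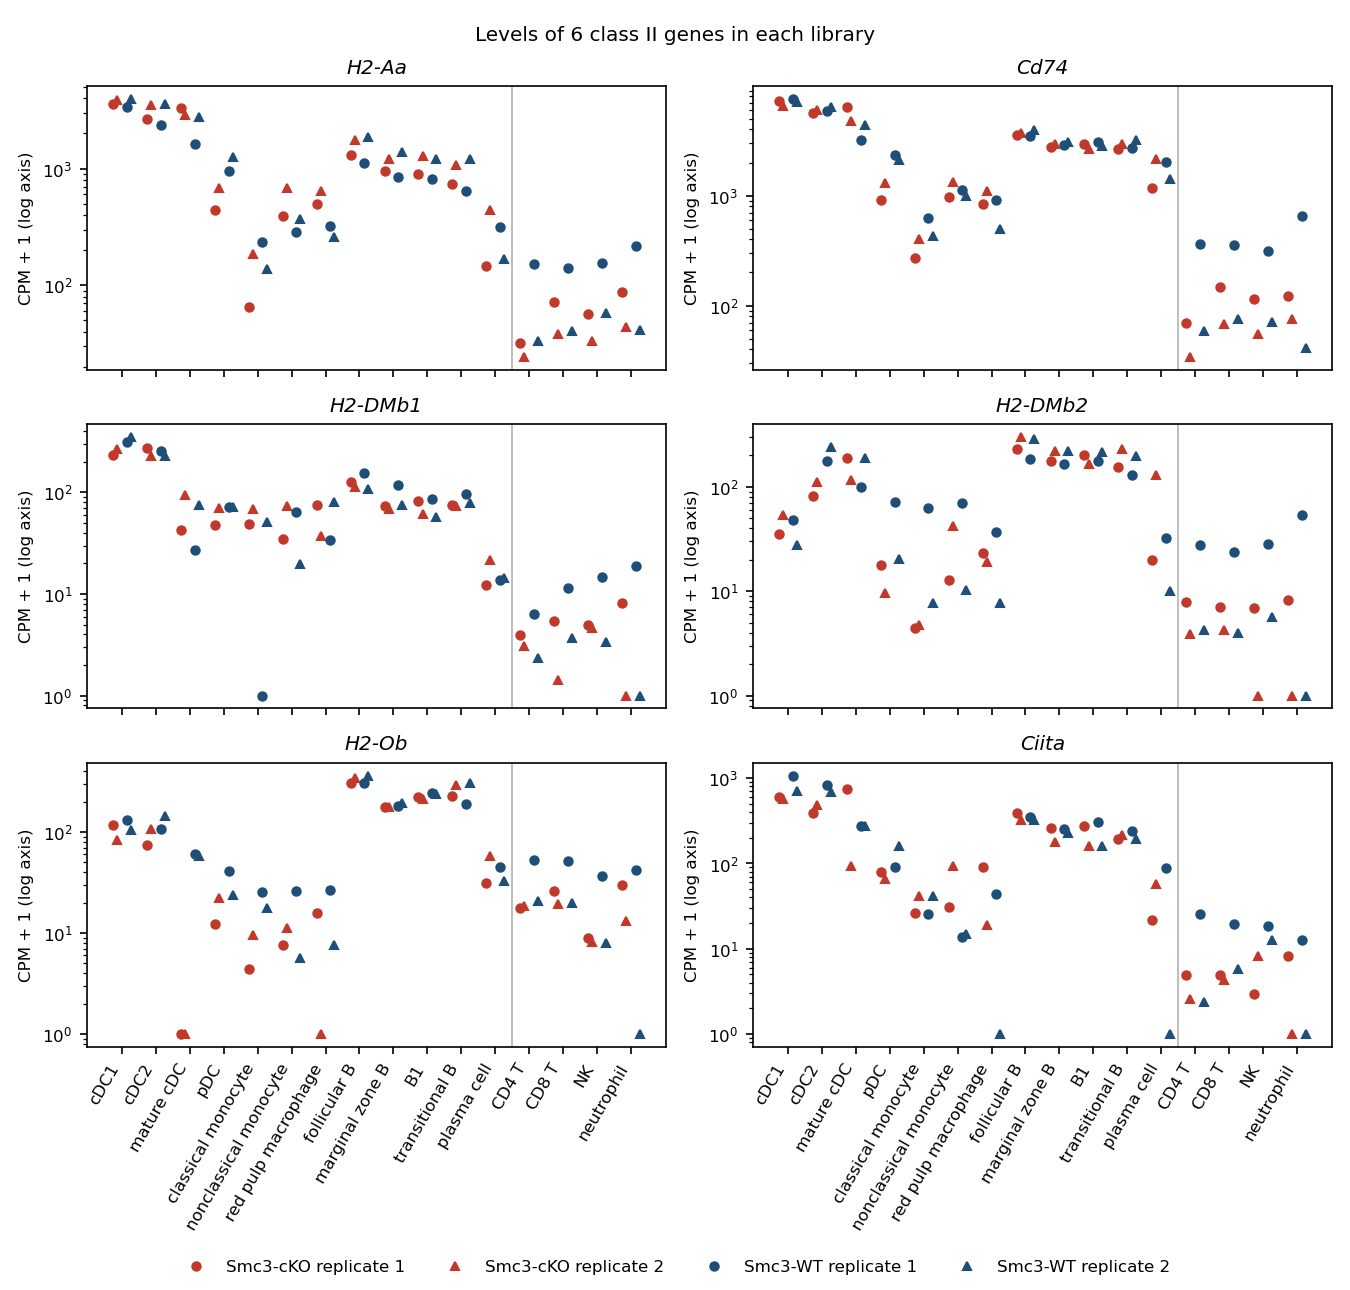
Levels of 6 class II genes (CPM + 1, log axis) in every library by class, with Smc3-cKO in red and Smc3-WT in blue, circles for replicate 1 and triangles for replicate 2, and the grey line before CD4 T, CD8 T, NK and neutrophil classes. H2-DMb2 lies at 26.8 to 53.3 CPM in cDC1 and at 185 to 298 CPM in follicular B cells, while Smc3-WT replicate 1 is the highest library for Cd74 in CD4 T cells, at 360 CPM.

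The H2-DM genes differed between classes in which beta chain gene they used. H2-DMb1 had 231 and 266 CPM in cDC1 of the Smc3-cKO libraries, against 315 and 348 CPM in the Smc3-WT libraries. H2-DMb2 had 34.0 and 53.3 CPM in cDC1 of the Smc3-cKO libraries, against 47.5 and 26.8 CPM in the Smc3-WT libraries. Follicular B cells held 125 and 111 CPM of H2-DMb1 in the Smc3-cKO libraries, against 154 and 106 CPM in the Smc3-WT libraries. For H2-DMb2 they held 231 and 298 CPM in the Smc3-cKO libraries, against 185 and 287 CPM in the Smc3-WT libraries. In words, cDC1 were the high class for H2-DMb1 and follicular B cells for H2-DMb2, with no overlap between these classes for either gene.

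As a share of H2-DMb1 and H2-DMb2 UMIs together, H2-DMb2 took 12.4% ± 3.94 in cDC1, 36.9% ± 12 in cDC2 and 72.0% ± 11.8 in mature cDC (SD, n = 4). It took 66.3% ± 8.69 in follicular B, 70.0% ± 8.07 in marginal zone B, 72.8% ± 4.88 in B1 and 68.2% ± 7.77 in transitional B cells. The share is set beside itself across classes and says nothing on the relative level of these genes, whose reads could also be split between near-identical copies. In cDC1 against cDC2, H2-DMb2 was lower by a log2 change of -1.76 (SE 0.32, adjusted p = 0.00112, edgeR quasi-likelihood test with Benjamini-Hochberg adjustment), the 1 of the 10 genes called in that pair, where 7.12% of all genes were lower. H2-Ab1 had 0.57 (SE 0.19, adjusted p = 0.0551) and passed in 4 alternatives. Mature cDC, the migratory state marked by Ccr7, had less H2-DMb1 than cDC2, at -2.03 on the log2 scale (SE 0.38, adjusted p = 0.000668, edgeR), while H2-DMa had -0.94 (adjusted p = 0.0391), 2 genes of 10 against 11.6% of all genes. The H2-DMa call was lost on leaving out any 1 of the 4 libraries (adjusted p = 0.0511 to 0.138), and mature cDC rested on 19 H2-DMb1 UMIs in all.

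**Figure D3:**
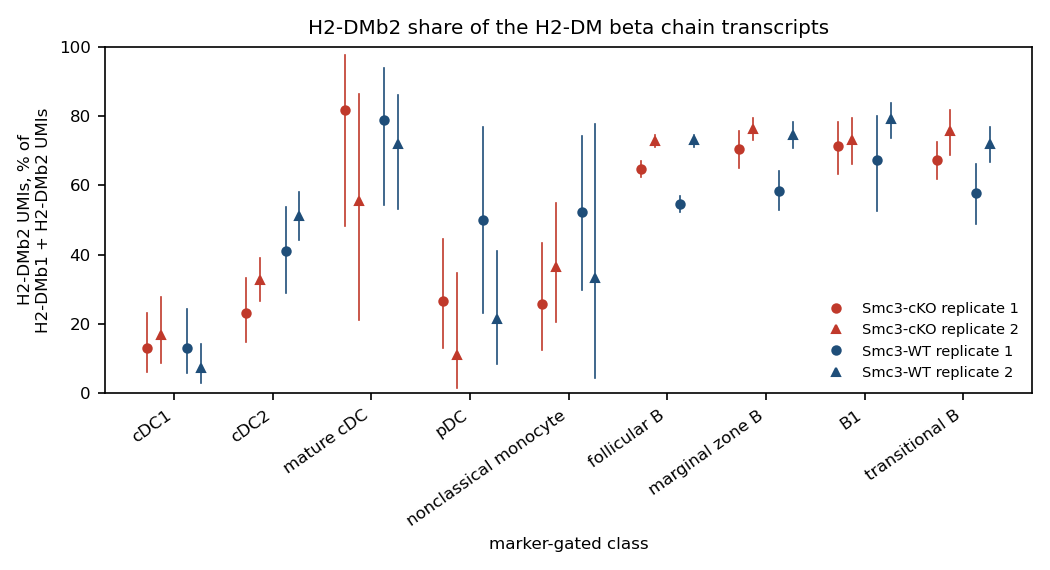
Share of H2-DMb2 in the summed H2-DMb1 and H2-DMb2 UMIs (vertical axis, percent) by class and library, with Smc3-cKO in red left of Smc3-WT in blue and exact 95% binomial intervals. cDC1 sit at 7.14% to 16.7% and B1 cells at 67.3% to 79.1%, and in cDC2 both Smc3-cKO libraries (23.0% and 32.6%) lie below both Smc3-WT libraries (40.9% and 51.2%).

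Of the H2-O genes, H2-Ob was highest in follicular B cells and H2-Oa in cDC2. H2-Ob, the beta chain of H2-O, had 303 and 339 CPM in follicular B cells of the Smc3-cKO libraries, against 303 and 360 CPM in the Smc3-WT libraries. In cDC2 it had 73.1 and 106 CPM in the Smc3-cKO libraries, against 105 and 142 CPM in the Smc3-WT libraries. Follicular B cells were higher than cDC2 in H2-Ob by 1.67 on the log2 scale (SE 0.17, adjusted p = 4.37e-07, edgeR) and in H2-DMb2 by 0.86 (SE 0.22, adjusted p = 0.00506). These were the 2 of 10 genes higher there, against 16.3% of all genes, and 7 of 10 were lower, against 18.3%. Without Smc3-cKO replicate 2 the H2-DMb2 difference had an adjusted p of 0.0693. H2-Oa, the alpha chain, was highest in cDC2 at 116 ± 24.5 CPM and averaged 81.9 ± 19.5 CPM in follicular B cells, a log2 change of -0.43 for B over cDC2 that did not pass (95% interval -0.80 to -0.05, adjusted p = 0.0721). H2-Oa and H2-Ob made up 44.3% ± 1.12 of H2-O and H2-DM UMIs in follicular B cells, 24.0% ± 3.37 in cDC1, 24.6% ± 3.38 in cDC2 and 25.9% ± 3.06 in pDC (SD, n = 4). Classical monocytes had 9.32% ± 4.36, and no B cell library overlapped a cDC1, cDC2, pDC or monocyte library. CD4 T cells, at 39.7% ± 4.99, were nearer to B cells.

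Ciita had 605 and 567 CPM in cDC1 of the Smc3-cKO libraries, against 1069 and 707 CPM in the Smc3-WT libraries. In follicular B cells it had 388 and 318 CPM in the Smc3-cKO libraries, against 349 and 327 CPM in the Smc3-WT libraries. Smc3-cKO lay below Smc3-WT in cDC1 without overlap, as did 17.3% of all genes tested there on levels scaled between libraries. The cDC1 difference of Ciita did not pass in the main fit or in any alternative. The genotypes overlapped in B cells. The log2 change over CD4 T cells was 7.13 (SE 0.31, adjusted p = 9.45e-19) in cDC1 and 5.99 (SE 0.48, adjusted p = 1.31e-05) in follicular B cells, by edgeR. At 1000 UMIs per cell 42.2% of cDC2, 27.8% of follicular B, 8.04% of pDC and 0.587% of CD4 T cells held a Ciita UMI (means of 4 libraries).

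In pDC all 10 genes were lower than in cDC2 (15.5% of all genes), from a log2 change of -2.86 for H2-Eb1 (SE 0.25, adjusted p = 5.05e-09, edgeR) to -1.17 for H2-Oa. The same held for 10 of 10 in classical monocytes (16%) and red pulp macrophages (18%) against cDC2. Within B cells, 9 of 10 were lower in marginal zone than in follicular B cells (11.3%), H2-Oa being the exception, and 10 of 10 in transitional B cells (5.29%). The transitional B call of H2-Oa was lost without Smc3-cKO replicate 1, Smc3-cKO replicate 2 or Smc3-WT replicate 2 (adjusted p = 0.0735 to 0.196, edgeR) and with 1 more marker required, that of H2-DMa without Smc3-cKO replicate 1 (0.0683) and that of H2-Ob with 1 more marker (0.0507). The marginal zone differences were small, from -0.88 for H2-Ob to -0.37 for Cd74. Without Smc3-WT replicate 2 the marginal zone calls of Cd74 (adjusted p = 0.0502, edgeR) and H2-DMa (0.0524) were lost. Nonclassical over classical monocytes had 5 of 8 tested genes higher (10.4%) and H2-DMa lower (10.9%), with H2-Eb1 at 2.12. With monocytes taken from clusters in place of marker gates the same 3 antigen-binding chains and Cd74 were lower, H2-Eb1 by -0.98, so the order of the monocyte classes depended on how cells were assigned.

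Across 14 classes with enough cells, the mean level of Cd74, H2-Ab1, H2-Eb1, H2-Aa and Ciita followed the 10-gene sum most closely, with Pearson's r of log2(CPM + 1) of 0.995 to 0.982, while H2-DMb2 (0.827), H2-Oa (0.814) and H2-Ob (0.706) followed it least. H2-Ob was more like H2-DMb2 (r = 0.875) than H2-DMb1 (r = 0.545). Among 6617 genes considered, the members included, the 10 other genes most like the sum were Wdfy4 (0.956), Pqlc2 (0.925), Fgd2 (0.917), Kynu (0.912), Pkib (0.906), Usp6nl (0.897), Rubcnl (0.881), Icosl (0.877), Cep128 (0.876) and Kmo (0.866). These values describe class means that share libraries, and Cd74 and the I-A chains also make up most of the sum.

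Between genotypes, none of the 10 genes passed an adjusted p of 0.05 in any of the 10 classes fitted, by edgeR's quasi-likelihood test. The share of all genes called in either direction was 0.0226% in cDC1, 0.709% in cDC2, 0.727% in all cDC, 0.0435% in nonclassical monocytes, 0.0718% in red pulp macrophages, 0.0089% in follicular B and 0.0213% in marginal zone B cells. It was 0% in pDC, classical monocytes and CD4 T cells, so few genes of any kind passed. With 2 libraries a side an exact permutation test cannot go below p = 0.333. In follicular B cells the members lay close to 0, with a median log2 change of -0.01 and H2-Aa at 0.01 (95% interval -0.76 to 0.78), and 0 of 10 separated the genotypes without overlap in either direction (12.1% of all genes below and 10.8% above). At an unadjusted p under 0.05 there were 5 members in pDC, 4 in CD4 T cells and 3 in red pulp macrophages. There were 2 in cDC2, 1 each in all cDC and nonclassical monocytes and 0 in the others. The share of all genes at that unadjusted level was not counted, so these member counts have no background to be read against. DESeq2 called 0 members in each class. Overlap between genotypes is counted here and below on levels scaled by TMM factors, which for a few genes differ in order from the CPM printed.

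In pDC of the Smc3-cKO libraries the antigen-binding chains were low in every library. H2-Eb1 had 185 and 184 CPM in pDC of the Smc3-cKO libraries, against 453 and 512 CPM in the Smc3-WT libraries. H2-Ab1 had 249 and 313 CPM in the Smc3-cKO libraries, against 735 and 641 CPM in the Smc3-WT libraries. Cd74 had 914 and 1299 CPM in the Smc3-cKO libraries, against 2326 and 2120 CPM in the Smc3-WT libraries. For these genes both Smc3-cKO libraries lay below both Smc3-WT libraries, as they did for 7 of the 8 members tested, against 14.7% of all genes (H2-Oa on the TMM scale only). The log2 changes were -1.47 for H2-Eb1 (95% interval -2.12 to -0.82), -1.37 for H2-Ab1 (-2.06 to -0.68), -1.09 for Cd74, -1.06 for H2-Aa and -0.95 for Ciita, with a median of -1.01 over the 8 members and -0.03 over all genes. The lowest adjusted p was 0.65, and without Smc3-WT replicate 2 that of H2-Ab1 was 0.0495. Ciita had -0.32 without that library.

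B cell markers were high in pDC of Smc3-WT replicate 1 alone. The 11 markers summed to 245 and 197 CPM in pDC of the Smc3-cKO libraries, against 453 and 236 CPM in the Smc3-WT libraries. After the CD4 T cell level of the same library was subtracted, H2-Eb1 was 171 and 176 CPM in pDC of the Smc3-cKO libraries, against 359 and 489 CPM in the Smc3-WT libraries. Ciita was then 75.3 and 62.7 CPM in the Smc3-cKO libraries, against 66.1 and 157 CPM in the Smc3-WT libraries, which overlapped. pDC markers summed to 9542 and 8224 CPM in the Smc3-cKO libraries, against 10130 and 9314 CPM in the Smc3-WT libraries, and the mature cDC markers stayed between 3.78 and 10.1 CPM in all 4. The cDC2 markers summed to 648 and 643 CPM in pDC of the Smc3-cKO libraries, against 624 and 913 CPM in the Smc3-WT libraries. For the cDC1 markers the sums were 325 and 287 CPM, against 362 and 346 CPM. The part of cDC signal in the pDC difference was not tested. At 1000 UMIs per cell 46.4% and 50% of Smc3-cKO pDC held a Cd74 UMI, against 72.0% and 73.8% of Smc3-WT pDC. The exact 95% binomial intervals ran from 35.2% to 64.8% in the Smc3-cKO libraries and from 50.6% to 87.9% in the Smc3-WT libraries. The shares left out 2 and 0 shallower pDC in the Smc3-cKO libraries, against 0 and 6 in the Smc3-WT libraries, and before thinning they were 79.1% and 72.9%, against 96% and 89.6%. All these intervals cover counting error only. Median depth was 6214 and 4615 UMIs per pDC in the Smc3-cKO libraries, against 3906 and 4880 in the Smc3-WT libraries. CD4 T cells, too, had 9 of 9 tested members negative, with a median of -1.61, and 3 of the 9 separated the genotypes (12.3% of all genes).

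**Figure D4:**
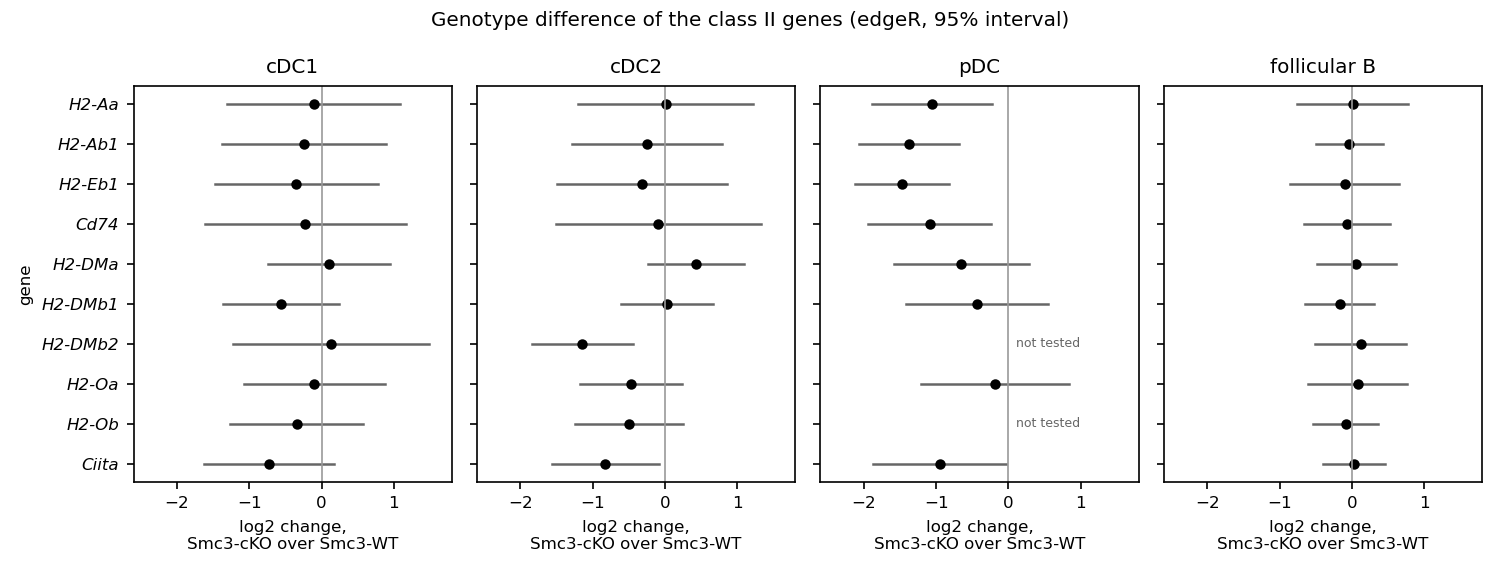
Log2 change of the 10 class II genes, Smc3-cKO over Smc3-WT, in 4 classes, with points for the edgeR estimate and bars for its 95% interval (2 libraries per genotype, vertical line at 0). In pDC all 8 genes tested lie left of 0, in cDC2 H2-DMb2 (-1.14) and Ciita (-0.82) are the lowest, and in follicular B cells every gene lies within 0.17 of 0.

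In cDC2 the antigen-binding chains overlapped between genotypes except H2-Ab1, and the members with the lowest p were H2-DMb2 and Ciita. H2-DMb2 had 81.2 and 111 CPM in cDC2 of the Smc3-cKO libraries, against 177 and 239 CPM in the Smc3-WT libraries. Ciita had 390 and 478 CPM in the Smc3-cKO libraries, against 835 and 690 CPM in the Smc3-WT libraries. Both genes lay lower in Smc3-cKO without overlap, as did 4 of the 10 members (19.7% of all genes), and 1, H2-DMa, lay higher (19.5% of all genes). The log2 change was -1.14 for H2-DMb2 (SE 0.31, adjusted p = 0.199) and -0.82 for Ciita (SE 0.33, adjusted p = 0.486), by edgeR. H2-DMb2 passed only without Smc3-WT replicate 1 (adjusted p = 0.00432).

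The genotype difference was then compared between cDC2 and follicular B cells of the same libraries. For H2-DMb2 it was lower in cDC2 by a log2 change of -1.27 (SE 0.31, 95% interval -1.89 to -0.66, adjusted p = 0.00622), by edgeR's quasi-likelihood test of the interaction with Benjamini-Hochberg adjustment, 1 member of 10 lower, against 0.91% of all genes. Ciita had -0.85 (SE 0.26, adjusted p = 0.0586). H2-DMb2 passed in 6 of 10 alternatives, with log2 changes from -1.38 to -0.69. The call was lost without Smc3-cKO replicate 1 (adjusted p = 0.12), Smc3-cKO replicate 2 (0.124) or Smc3-WT replicate 2 (0.0753), and with 1 more marker required per cell (adjusted p = 1).

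Other values moved with it. Cd209a, a C-type lectin gene and 1 of the 9 cDC2 markers, had a UMI in 77.1% and 76.4% of cDC2 of the Smc3-cKO libraries, against 42.4% and 47.1% in the Smc3-WT libraries. In cDC2 with a Cd209a UMI, H2-DMb2 had 47.0 and 92.1 CPM in the Smc3-cKO libraries, against 206 and 181 CPM in the Smc3-WT libraries. Those levels came from 8 and 47 UMIs, against 15 and 41. In cDC2 without a Cd209a UMI, H2-DMb2 had 158 and 175 CPM in the Smc3-cKO libraries, against 151 and 294 CPM in the Smc3-WT libraries. Those came from 12 to 70 UMIs a library. The genotypes overlapped for H2-DMb2 in the cells without a Cd209a UMI and not in those with one, a comparison that was not tested. How many of all genes separated the genotypes in either group was not counted. B cell markers summed to 150 and 215 CPM in cDC2 of the Smc3-cKO libraries, against 591 and 340 CPM in the Smc3-WT libraries, and to 18145 to 19812 CPM in follicular B cells. Their part in the H2-DMb2 difference was not tested, since too few cDC2 were left when no B marker UMI was allowed. The pDC markers summed to 426 and 341 CPM in cDC2 of the Smc3-cKO libraries, against 158 and 153 CPM in the Smc3-WT libraries, without overlap. H2-DMb2 averaged 28.9 CPM in pDC and 152 CPM in cDC2. The part of pDC signal in the cDC2 differences was not tested.

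In cDC1, Ciita had a log2 change of -0.73 (95% interval -1.62 to 0.17), and 6 of 10 members lay below without overlap on the TMM scale, against 17.3% of all genes. On the CPM scale these were 3, H2-Eb1, H2-DMb1 and Ciita, while H2-Ab1, Cd74 and H2-Ob overlapped. H2-Aa had -0.11 (95% interval -1.30 to 1.08), an interval that holds both halving and doubling. Red pulp macrophages pointed the other way. H2-Ab1 had 441 and 273 CPM in red pulp macrophages of the Smc3-cKO libraries, against 222 and 127 CPM in the Smc3-WT libraries, and 3 of 6 members tested lay above without overlap (14.3% of all genes). Their log2 changes were 0.99 for H2-Ab1, 0.85 for H2-Aa and 0.78 for H2-Eb1, none past the adjusted threshold. Without overlap, 3 of 10 members lay below and 1 above in all cDC (19.6% and 18.6% of all genes), 2 of 7 below in classical monocytes (14.5%), 2 of 7 above in nonclassical monocytes (15.2%) and 2 of 10 below in marginal zone B cells (11.9%). Mature cDC were not fitted between genotypes, with 11 and 6 cells in the Smc3-cKO libraries, against 29 and 25 in the Smc3-WT libraries.

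Other genes of the pathway were counted by list. In cDC2, 1 of 6 tested neighbours of the class II genes on chromosome 17 fell in Smc3-cKO. None passed of 5 tested processing genes (lowest p for Ifi30, a thiol reductase, at 0.61), 2 of turnover (Cd83, which protects surface class II, at -1.20), 3 regulators of class II promoters (Nfyc, an NF-Y subunit, at -0.82), 4 regulators of Ciita (Irf8 at 0.54), 2 neighbours of Ciita (Dexi at -0.67) and 4 class I genes (Nlrc5, the class I transactivator, at 0.64). In pDC no gene of these lists passed, and the lowest p was that of Ctsl, a cysteine protease, at -0.84 (unadjusted p = 0.0265). Against CD4 T cells, where 20.2% of all genes were higher in cDC2, cDC2 were higher in 4 and lower in 1 of 5 processing genes, higher in 2 of 2 turnover genes and higher in 3 and lower in 1 of 6 regulators of Ciita. Of 6 regulators of class II promoters 2 were higher and 2 lower, and of 4 class I genes 1 was higher and 2 were lower. Over all 10034 genes tested in cDC2 against CD4 T cells, 3907 were called in either direction, 2023 of them higher and the rest lower. Ctss, the protease that trims the invariant chain, averaged 781 ± 91.7 CPM in cDC2, 408 ± 15.3 CPM in follicular B and 135 ± 13.9 CPM in CD4 T cells. Spi1, which encodes PU.1, averaged 394 ± 37.6 CPM in cDC2, 46.8 ± 23.5 CPM in pDC and 74.1 ± 9.79 CPM in follicular B cells.

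The neighbour that fell was H2-Eb2, a paralogue of H2-Eb1 at chromosome 17, 34325503 to 34341410. H2-Eb2 had 8.12 and 9.10 CPM in cDC2 of the Smc3-cKO libraries, from 2 and 6 UMIs, against 98.6 and 92.4 CPM in the Smc3-WT libraries, from 15 and 43 UMIs. In mature cDC it had 104 and 162 CPM in the Smc3-cKO libraries, from 5 and 7 UMIs in 11 and 6 cells. The Smc3-WT libraries had 275 and 362 CPM there, from 42 and 44 UMIs, and mature cDC were not tested between genotypes. In follicular B cells it had 77.8 and 128 CPM in the Smc3-cKO libraries, against 75.0 and 94.6 CPM in the Smc3-WT libraries. H2-Eb2 was thus lower in both Smc3-cKO libraries than in both Smc3-WT libraries in cDC2, as were 19.7% of all genes tested there. The same order was seen in mature cDC, where no share of all genes was counted. The genotypes overlapped in follicular B cells, and H2-Eb2 was at 0 to 4.84 CPM in cDC1 of every library. The log2 change was -3.41 in cDC2 (SE 0.49, adjusted p = 0.018, edgeR), where 0.709% of all genes were called. In all cDC it was -3.07 (SE 0.37, adjusted p = 0.0101, edgeR), and that call was lost without Smc3-cKO replicate 1 (log2 change -2.95). All cDC sum cDC1, cDC2 and mature cDC, of which mature cDC had the highest H2-Eb2 levels. Mature cDC were 11 of 72 and 6 of 144 of these cells in the Smc3-cKO libraries, against 29 of 92 and 25 of 156 in the Smc3-WT libraries. The part of this make-up in the all cDC change was not tested.

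The H2-Eb2 difference was lower in cDC2 than in follicular B cells by -3.78 (SE 0.51, adjusted p = 4.39e-10, edgeR). It passed in 10 of 11 alternatives in cDC2, the exception being without Smc3-WT replicate 2 (adjusted p = 0.113), and in 9 of 10 for the interaction. H2-Eb2 in cDC2 with a Cd209a UMI had 11.7 and 3.92 CPM in the Smc3-cKO libraries, against 68.7 and 75.0 CPM in the Smc3-WT libraries. In those without one it had 0 and 26.9 CPM in the Smc3-cKO libraries, against 126 and 109 CPM in the Smc3-WT libraries. It was lower in Smc3-cKO on both sides of this split, from 0 to 26 UMIs per group. H2-Eb1 itself had 1628 and 2390 CPM in cDC2 of the Smc3-cKO libraries, against 1755 and 3130 CPM in the Smc3-WT libraries, which overlapped, and reads of these paralogues could be shared.

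**Figure D5:**
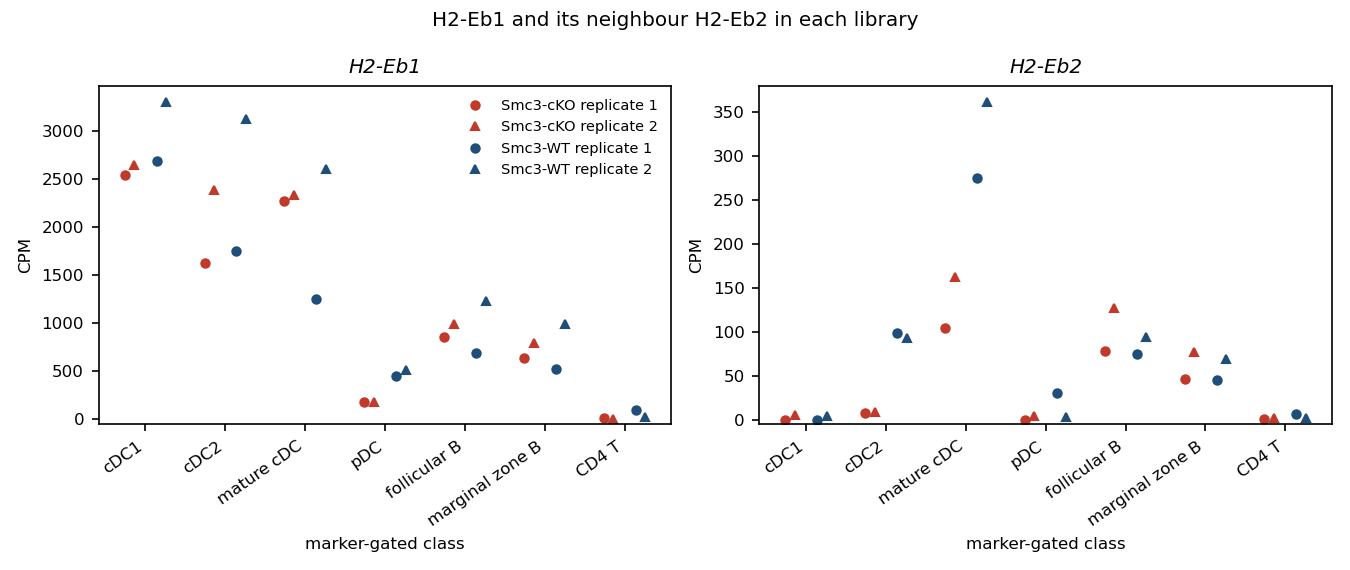
Levels of H2-Eb1 (left) and of its neighbour H2-Eb2 (right) in CPM by class and library, with Smc3-cKO in red left of Smc3-WT in blue, circles for replicate 1 and triangles for replicate 2. H2-Eb2 in cDC2 is at 8.12 and 9.10 CPM in Smc3-cKO and at 98.6 and 92.4 CPM in Smc3-WT, while H2-Eb1 overlaps between genotypes in cDC2.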

How the data were processed

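The authors deposited raw UMI counts per gene and barcode for each of the 4 libraries, made with Cell Ranger 7.0.0 per the file headers and with build mm10 per the submitters' processing notes; barcodes under 500 UMIs were absent. The other 26 samples of the series were not used. Barcodes with fewer than 200 genes or over 10% mitochondrial UMIs were dropped, as were Scrublet calls, and cells were gated by marker counts (2 to 6 own markers by class, at most 3 B and 2 T markers in other lineages). Each class's counts were added up within a library and scaled to CPM of all its UMIs. Classes with at least 20 cells in every library were tested between genotypes, and those with at least 5 between classes, with edgeR 4.0.16 (filterByExpr, TMM, quasi-likelihood F test, Benjamini-Hochberg over all genes tested, threshold 0.05). Contrasts between classes and the interaction held library as a block. The fits were tested on simulated data. DESeq2 1.42.0 was an alternative, besides other scaling, filters, gates, clusters made with scanpy 1.11.5, and leaving out each library. Intervals of shares are exact Clopper-Pearson at 95%. Genes named are the 10 members, genes of the lists that passed or had the lowest p, and the 10 most like the summed level. The members and lists were chosen with earlier results of these data known.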

Additional observations from a re-analysis of the deposited data

Results flagged for a closer look

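The genotype difference of H2-DMb2, on the log2 scale, was lower in cDC2 than in follicular B cells by -1.27 (adjusted p = 0.00622 by edgeR's interaction test). H2-DMb2 lay lower in both Smc3-cKO libraries than in both Smc3-WT libraries of cDC2, as did 19.7% of all genes tested there. It did not pass between genotypes within cDC2 alone. The interaction call passed in 6 of 10 alternatives and was lost with 1 more marker required per cell. H2-Eb2, the paralogue beside H2-Eb1, differed in the same test by -3.78 (adjusted p = 4.39e-10). Cd83, from the list on class II turnover, differed by -1.36 (adjusted p = 0.0469) and passed in 1 of 10 alternatives. Its level in cDC2 was 40.6 and 33.4 CPM in the Smc3-cKO libraries, against 72.3 and 86.0 CPM in the Smc3-WT libraries. In follicular B cells Cd83 had 255 and 272 CPM in the Smc3-cKO libraries, against 207 and 252 CPM in the Smc3-WT libraries. All of them were drawn from the same 11427 genes tested.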

How the results depend on the processing

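The log2 changes of the members were recomputed under the alternatives, with those of H2-Eb2 and Cd83 where these had passed between genotypes or in the interaction. Of these 3379 values, 3274 kept their side of the threshold with no called value turned (161 values not called changed sign), 66 lost a call, 34 gained one and 5 reversed. Between genotypes within a class the members had no call to lose. They lost 27 calls over CD4 T cells and 23 between other pairs of classes. The reversals were all for nonclassical over classical monocytes with clusters in place of gates: H2-Aa -1.02, H2-Ab1 -0.90, H2-Eb1 -0.98, Cd74 -0.55 and Ciita -2.54, and the cause was not tested. Members called between genotypes in CD4 T cells were 0, but 5 with no low-count filter, 1 with the replicate block and 0 to 7 on leaving out a library; in cDC2 and in pDC they were 0 to 1 on leaving out a library. The replicate block changed no other member's call. Same-numbered libraries correlated from -0.0248 (classical monocytes) to 0.509 (follicular B) in their deviations, and the labels tie the numbers to nothing shared. Red pulp macrophages over CD4 T had 4 members called with no B marker UMI allowed, and plasma cells 5 with clusters. cDC1 over cDC2 had 2 with DESeq2 size factors, 1 more marker or clusters, and 1 to 2 on leaving out a library. Mature cDC over cDC2 had 5 with no filter, 4 with clusters and 1 to 3 on leaving out a library. The interaction called 0 members with 1 more marker, 2 with doublets kept and 0 to 1 on leaving out a library, where H2-DMb2 ran from -1.38 to -1.17; with 1 more marker it was -0.69. Genes called between genotypes in cDC2 numbered 42, from 12 (1 more marker) to 209 (on leaving out a library), in all cDC 58, from 0 to 685, and for the interaction 166, from 18 to 281. Several alternatives left too few cells and gave no value: no B marker UMI for dendritic, monocyte and macrophage genotype tests and the interaction, the 5% mitochondrial ceiling for pDC and classical monocytes, and clusters for B1 and transitional B cells. Few UMIs limit H2-DMb2, H2-Oa and H2-Ob in pDC, mature cDC and monocytes.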
